A study of Mus musculus with 16 samples.

Results

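This account covers 9 genes that act where receptors of the tumour necrosis factor (TNF) family meet the cell's signalling and death machinery, 9 of the 32697 genes counted in 16 mouse libraries. They are the TRAF genes Traf1, Traf2 and Traf3, the inhibitor of apoptosis (IAP) genes Birc2, Birc3 and Xiap, and the death-receptor complex genes Cflar, Ripk1 and Casp8. Members were taken by symbol from their known roles, each symbol matching a single Ensembl gene. All 9 genes had enough counts to be tested, and the lowest count of any of them in any library was 167, for Xiap.

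When a TNF family receptor is engaged, TRAF2 brings the ubiquitin ligases cIAP1 and cIAP2 (the products of Birc2 and Birc3) to the receptor, and ubiquitin chains on RIPK1 carry the signal to the IKK complex and NF-kB. The same proteins with TRAF3 keep the kinase of the non-canonical NF-kB route low at rest. Where that scaffold fails, RIPK1 can join FADD and caspase-8, and cFLIP (the product of Cflar) limits caspase-8 activation. Several of these genes, among them Traf1, Birc3 and Cflar, are textbook NF-kB targets, and dendritic cells receive TNF family signals such as CD40 ligand while they mature.

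The libraries came from YUMM1.7 tumours, a transplanted mouse melanoma line, grown to 200 to 350 mm3, and per the series' text the sorted cells were cDC1s, conventional dendritic cells of type 1 known for presenting tumour antigen to cytotoxic T cells. The genotype labels give 4 groups, each of 4 libraries: Ikbkb-deleted (genotype IKKbdeltaXCR1), Ikbkb controls (IKKbFF), Irf1-deleted (IRF1deltaXCR1) and Irf1 controls (IRF1FF). The deletions are named after Xcr1, a chemokine receptor gene of cDC1s, the controls carry the floxed allele, and the hosts are described as female. Ikbkb encodes IKK-beta, the kinase that releases NF-kB from its inhibitor, and Irf1 encodes an interferon-induced transcription factor. The growth notes name the Ikbkb mice alone, so the Irf1 groups rest on their genotype labels, and no age is given. Nothing in the labels says whether replicates were separate animals, so the p-values below reflect only library-to-library spread, which may be technical.

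Libraries held 16478671 to 27433818 counts. Ikbkb itself had 46.3, 28.5, 37.1 and 37.8 CPM (counts scaled to library size) in the Ikbkb-deleted libraries and 45.1, 44.5, 121 and 48.6 CPM in their controls, and Irf1 had 299, 123, 145 and 98.6 CPM in the Irf1-deleted libraries and 141, 234, 152 and 268 CPM in theirs. Both pairs of groups overlapped, and neither gene passed the test (edgeR's quasi-likelihood test with Benjamini-Hochberg adjustment, adjusted p = 0.988 for Ikbkb and 1 for Irf1). Counts over whole genes do not separate the deleted exons, so the groups rest on the labels. Each of the 14 cDC1 markers found in the table had counts in every library, but their summed level ran from 879 to 9327 CPM. Macrophage and monocyte markers summed to 4034 to 17992 CPM, fibroblast and endothelium markers to 6490 to 31103 CPM, and T and NK cell markers to 54.3 to 1896 CPM. Ikbkb control replicate 3 stood apart, with sums of 8981 CPM for cDC1 markers, 8535 CPM for mature dendritic cell (DC) markers and 1896 CPM for T and NK cell markers. In bulk RNA, fewer cells of a type and less RNA per cell cannot be told apart, and this holds for every result below.

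The members sit on 6 chromosomes (build mm10, GENCODE M21 annotation). Traf1 (ENSMUSG00000026875, chr2:34941750-34961772) and Traf2 (ENSMUSG00000026942, chr2:25517982-25546940) lie on the minus strand of chromosome 2, and Traf3 (ENSMUSG00000021277, chr12:111166370-111267153) on the plus strand of chromosome 12. Birc2 (ENSMUSG00000057367, chr9:7818227-7837064) and Birc3 (ENSMUSG00000032000, chr9:7848699-7873186) are neighbouring paralogues on the minus strand of chromosome 9, so reads from stretches they share could have been left out of the counts. Xiap (ENSMUSG00000025860, chrX:42059679-42109656) is on the plus strand of the X chromosome. Cflar (ENSMUSG00000026031, chr1:58711508-58758884) and Casp8 (ENSMUSG00000026029, chr1:58795374-58847503) follow each other on the plus strand of chromosome 1. Ripk1 (ENSMUSG00000021408, chr13:34002363-34037147) shares 241 exon bases with Serpinb6a on the opposite strand, and since the strand setting of the counting is not given in the sources used here, reads from these bases cannot be told apart.

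Promoter windows of 250 bases before to 50 bases after an annotated start were read for all 9 members (13 windows, RefSeq, GRCm38.p6) because the deleted genes bear on NF-kB and IRF1. They were searched on both strands for the NF-kB consensus (by name) and for the IRF motif (GAAA, any 2 bases, GAAA). Of 32817 windows of the same length in the table, 4.5% held the NF-kB consensus and 3.43% the IRF motif. The 4 windows below, each 5′ to 3′ on the gene's strand with matches in capitals, are the 3 that held a match and that of Traf1, the member that varied most.
Traf1, chr2:34961723-34962022, minus strand: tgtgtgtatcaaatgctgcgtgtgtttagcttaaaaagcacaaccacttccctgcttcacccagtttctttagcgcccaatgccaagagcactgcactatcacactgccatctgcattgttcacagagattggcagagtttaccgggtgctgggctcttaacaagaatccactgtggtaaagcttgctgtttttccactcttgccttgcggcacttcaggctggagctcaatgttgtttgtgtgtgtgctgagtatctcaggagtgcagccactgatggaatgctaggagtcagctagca
Traf3, chr12:111166120-111166419, plus strand: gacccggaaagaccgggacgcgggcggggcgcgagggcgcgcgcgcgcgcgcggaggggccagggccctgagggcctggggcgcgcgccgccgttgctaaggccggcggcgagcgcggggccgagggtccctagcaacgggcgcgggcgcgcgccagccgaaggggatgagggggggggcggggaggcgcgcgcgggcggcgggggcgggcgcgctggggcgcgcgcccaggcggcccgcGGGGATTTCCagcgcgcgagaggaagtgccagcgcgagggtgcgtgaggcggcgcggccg
Cflar, chr1:58711241-58711540, plus strand: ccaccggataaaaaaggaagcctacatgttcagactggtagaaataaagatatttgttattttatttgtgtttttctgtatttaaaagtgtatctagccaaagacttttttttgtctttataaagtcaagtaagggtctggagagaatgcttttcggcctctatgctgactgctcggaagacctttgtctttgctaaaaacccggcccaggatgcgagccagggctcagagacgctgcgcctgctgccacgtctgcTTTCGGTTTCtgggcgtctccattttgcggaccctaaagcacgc
Ripk1, second window, chr13:34002624-34002923, plus strand: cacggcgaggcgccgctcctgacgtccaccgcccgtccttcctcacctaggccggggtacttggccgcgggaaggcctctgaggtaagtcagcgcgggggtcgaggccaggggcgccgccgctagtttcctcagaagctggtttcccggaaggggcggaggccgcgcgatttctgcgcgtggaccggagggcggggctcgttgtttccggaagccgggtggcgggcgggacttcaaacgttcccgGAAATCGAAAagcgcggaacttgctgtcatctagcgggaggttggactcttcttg
Counting the annotated start as position 0, the NF-kB match of Traf3, GGGGATTTCC, covered positions -10 to -1. The IRF match of Cflar, TTTCGGTTTC, read from the other strand, covered positions 6 to 15. In the second Ripk1 window an IRF match, GAAATCGAAA, covered positions -5 to 4. No match overlapped another, and neither pattern was found in the other 10 windows, including those of Traf1 and Birc3. A match is a description of these letters, and a window without one says nothing about more distant sites.

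Levels between genes were compared per kilobase (kb) of exon, as CPM per kb over all annotated exons. Casp8, which encodes the initiator caspase of death receptors, had the highest mean over the 16 libraries, 41.3 CPM per kb, and ranked first in 15 of them. Traf1 followed at 17.5 CPM per kb and ranked first in the remaining library, Ikbkb control replicate 3. Traf2, Birc3, Birc2 and Ripk1 averaged 14.0, 11.8, 11.3 and 7.55 CPM per kb. The lowest levels were those of Traf3 (3.82 CPM per kb), Cflar (3.62 CPM per kb) and Xiap (2.02 CPM per kb). The order depends on the length used: with the median length of protein-coding transcripts, an alternative chosen after seeing the data, Traf1 came first (70.2 CPM per kb) and Casp8 second (63.5), Cflar moved from rank 8 to rank 6, and Xiap stayed last (2.97).

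**Figure D1:**
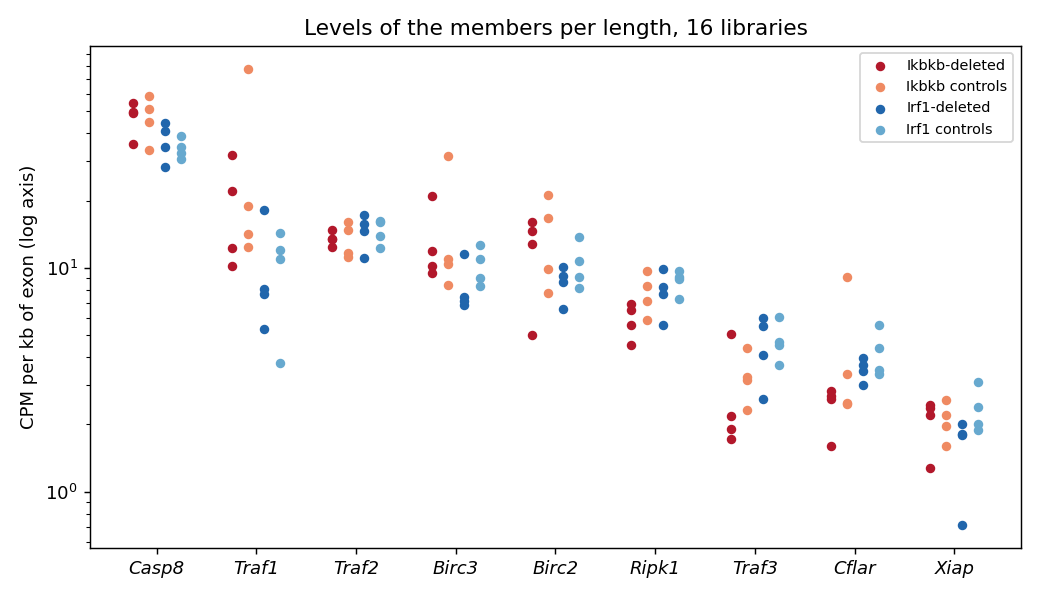
Level of each member in CPM per kb of exon (log axis), with 1 point per library and the groups in separate colours. Casp8 lies highest in 15 of 16 libraries, Xiap is the lowest on average, and the points of Traf1 spread over the widest range.

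Members differed widely in how much they varied between libraries. Traf1 ran from 33.1 to 684 CPM, a 20.6-fold range, and its SD of log2 CPM within groups, 0.92, was above that of 93.1% of the 9641 tested genes whose log2 CPM averaged 3 or more. Traf2 ran from 56.5 to 87.5 CPM, a 1.55-fold range, and its SD of 0.22 was above that of 7.19% of those genes. Casp8 (SD 0.27) and Ripk1 (SD 0.29) were also steady, and the other 5 members had SDs between 0.46 and 0.55. The precision of a comparison follows this spread: with 4 libraries a group, the standard error (SE) of a log2 fold change was 0.59 for Traf1 and 0.17 for Traf2.

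Among the TRAF genes none passed the test in either deletion. Traf1, an adaptor without ubiquitin ligase activity that binds TRAF2 and cIAPs, had 282, 194, 90.2 and 108 CPM in the Ikbkb-deleted libraries and 166, 124, 684 and 110 CPM in the Ikbkb controls. The groups overlapped, and the control mean rested on replicate 3, which was far above the next control. The log2 fold change was -0.68 ± 0.59 (SE, n = 4 each; edgeR's quasi-likelihood test, adjusted p = 1), and without Ikbkb control replicate 3 it was 0.33. In the Irf1 set Traf1 had 160, 47.1, 71.1 and 67.7 CPM in the deleted libraries and 96.6, 127, 33.1 and 106 CPM in the controls. Here too the groups overlapped, with a log2 fold change of -0.07 ± 0.59 (adjusted p = 1). No gene at all was called at an adjusted p under 0.05 in the Ikbkb comparison (0% of 16040), where 769 had an unadjusted p under 0.05 and DESeq2 called 38, none of them a member. The Irf1 comparison likewise called 0% of the genes, with 419 at an unadjusted p under 0.05 and 6 called by DESeq2, again none a member.

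Traf2, the adaptor that recruits cIAPs and TRAF1 to receptors, hardly varied. It had 69.0, 75.6, 63.2 and 68.4 CPM in the Ikbkb-deleted libraries and 75.4, 59.2, 81.5 and 57.1 CPM in their controls, where its log2 fold change was 0.02 ± 0.17. The 95% interval, 0.784- to 1.30-fold, bounds the change that these libraries leave possible. In the Irf1 set it had 74.7, 80.1, 56.5 and 87.5 CPM in the deleted libraries and 62.5, 82.8, 81.9 and 71.1 CPM in the controls (log2 fold change 0.00 ± 0.17, interval 0.777- to 1.29-fold). Traf3, which with TRAF2 and cIAPs holds back the non-canonical kinase NIK, had 37.3, 12.7, 15.97 and 14.0 CPM in the Ikbkb-deleted libraries and 32.1, 23.2, 17.1 and 24.03 CPM in the controls. Of the deleted libraries 3 lay below every control and replicate 1 above all of them, so the groups overlapped (log2 fold change -0.27 ± 0.35, adjusted p = 1). Leaving out that replicate gave -0.76, which did not pass the test either (edgeR's adjusted p = 0.820). Irf1-deleted libraries had 44.0, 30.1, 40.4 and 19.1 CPM of Traf3, against 44.6, 34.3, 33.2 and 27.1 CPM in the Irf1 controls, with a log2 fold change of -0.06 ± 0.35.

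**Figure D2:**
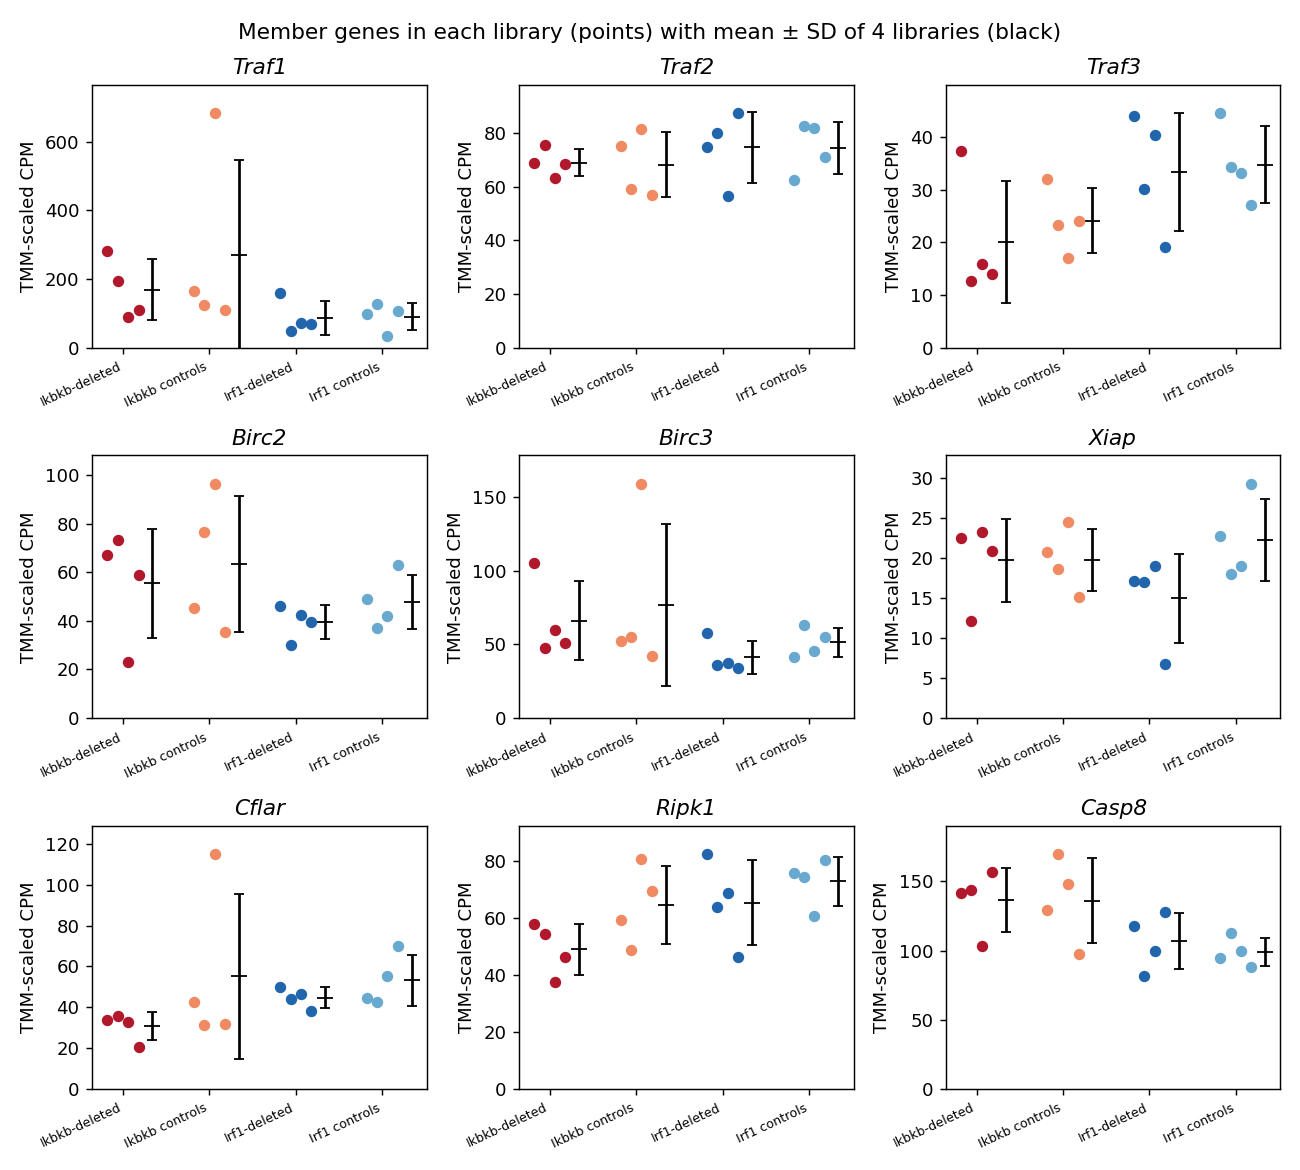
CPM of each member in every library, with coloured points for libraries in replicate order and black marks for the group mean ± 1 SD (n = 4), deleted groups left of their controls. The groups of each deletion overlap for all 9 members, and Ikbkb control replicate 3 is the high point for Traf1, Birc3 and Cflar (the lower end of the Traf1 error bar there falls below 0 and is not drawn).

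The IAP genes did not pass the test in either deletion. Birc2, encoding the ubiquitin ligase cIAP1, had 67.2, 73.1, 23.1 and 58.7 CPM in the Ikbkb-deleted libraries and 45.2, 76.4, 96.5 and 35.4 CPM in the Ikbkb controls (log2 fold change -0.19 ± 0.35). It had 46.3, 30.1, 42.2 and 39.6 CPM in the Irf1-deleted libraries and 49.0, 37.2, 41.8 and 62.9 CPM in the Irf1 controls (-0.27 ± 0.35). Both pairs of groups overlapped. Birc3, encoding the inducible relative cIAP2, had 105, 47.6, 59.5 and 51.2 CPM in the Ikbkb-deleted libraries and 52.0, 54.7, 159 and 42.2 CPM in the Ikbkb controls (-0.22 ± 0.38). The high libraries were Ikbkb-deleted replicate 1 and Ikbkb control replicate 3, which were also those with the most cDC1 markers (9327 and 8981 CPM). Without Ikbkb control replicate 3 the Birc3 value was 0.40. In the Irf1 set Birc3 had 57.9, 35.7, 37.2 and 34.2 CPM in the deleted libraries and 41.6, 63.3, 45.4 and 54.8 CPM in the controls (-0.31 ± 0.38), with 3 of the 4 deleted libraries below every control.

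Xiap, which encodes the direct inhibitor of effector caspases, was the member with the lowest level. Its values were 22.5, 12.1, 23.2 and 20.9 CPM in the Ikbkb-deleted libraries and 20.8, 18.6, 24.4 and 15.1 CPM in the Ikbkb controls, with a log2 fold change of -0.00 ± 0.32. Irf1-deleted libraries had 17.2, 17.0, 19.0 and 6.74 CPM of Xiap, against 22.8, 17.97, 19.0 and 29.3 CPM in the Irf1 controls. The lowest value of all 16 libraries was that of Irf1-deleted replicate 4, and the groups overlapped through Irf1-deleted replicate 3 and the lowest controls. The fold change of Xiap was the most negative of the 9 members in the Irf1 deletion, 0.674-fold with a 95% interval of 0.422- to 1.07-fold (log2 -0.57 ± 0.32; edgeR's unadjusted p = 0.0918, adjusted p = 1). It was -0.33 without Irf1-deleted replicate 4.

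Of all members Cflar had the lowest p in the Ikbkb deletion, although it did not pass the test. Cflar, the gene for the caspase-8-like protein without protease activity that restrains caspase-8, had 33.9, 35.6, 32.8 and 20.3 CPM in the Ikbkb-deleted libraries and 42.4, 31.2, 115 and 31.7 CPM in the Ikbkb controls. The groups overlapped, with 2 of the 4 controls within the range of the deleted libraries. Its level was 0.556-fold that of the controls, with a 95% interval of 0.327- to 0.945-fold (log2 -0.85 ± 0.36; edgeR's unadjusted p = 0.0321, adjusted p = 0.988). At an unadjusted p under 0.05 stood 4.79% of all genes tested, so that 1 member of 9 below this level is not a result about the members. Its value was -0.20 ± 0.23 once Ikbkb control replicate 3 was left out (edgeR's adjusted p = 0.998). With the level of mature DC markers as a covariate, an alternative chosen after seeing the data, it was -0.43, and with that of T and NK cell markers -0.49; with that of cDC1 markers it was -0.79. In the Irf1 set Cflar had 50.1, 43.9, 46.5 and 37.9 CPM in the deleted libraries and 44.5, 42.7, 55.4 and 70.1 CPM in the controls, where its groups overlapped (-0.25 ± 0.36).

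Ripk1 and Casp8 varied less. Ripk1, the kinase that can lead to NF-kB signalling or to death, had 57.8, 54.4, 37.6 and 46.3 CPM in the Ikbkb-deleted libraries and 59.4, 48.7, 80.9 and 69.4 CPM in the Ikbkb controls. Replicate 2 of the controls fell within the deleted range and the other 3 lay above it, giving 0.759-fold with a 95% interval of 0.558- to 1.03-fold (log2 -0.40 ± 0.21; edgeR's unadjusted p = 0.0751, adjusted p = 1). In the Irf1 set it had 82.5, 64.0, 68.8 and 46.3 CPM in the deleted libraries and 75.9, 74.4, 60.7 and 80.5 CPM in the controls (-0.16 ± 0.21). Casp8 had 142, 144, 103 and 157 CPM in the Ikbkb-deleted libraries and 129, 170, 148 and 97.7 CPM in the Ikbkb controls, with a fold change of 1.00 and a 95% interval of 0.752 to 1.33. Its Irf1-deleted libraries had 118, 81.5, 99.9 and 128 CPM, against 94.4, 113, 99.98 and 88.3 CPM in the Irf1 controls, 1.08-fold with an interval of 0.812 to 1.44. The groups of both genes overlapped in both deletions.

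Seen across the members, none of the 9 was called in either deletion, and for none did the libraries of a deletion lie apart from its controls. The same separation was seen in 1.7% of the genes tested in the Ikbkb comparison and in 2.89% in the Irf1 comparison. In each deletion 7 of the 9 members had a negative fold change, with Traf2 and Casp8 as the exceptions, at a median log2 value of -0.22 in the Ikbkb and -0.16 in the Irf1 deletion. Over all genes tested 47.8% and 48.2% lay above 0, with medians of -0.02 in both. Marker lists lay on both sides of 0, with no marker called. In the Ikbkb deletion 11 of 11 mature DC markers had negative values (median -0.48), as did 16 of 16 T and NK cell markers (-1.01). The same held for 13 of 15 macrophage and monocyte markers (-0.50), 6 of 6 plasmacytoid DC markers (-0.74) and 5 of 7 conventional DC type 2 (cDC2) markers (-0.23). It also held for 5 of 6 B cell markers (-1.20), 8 of 12 fibroblast and endothelium markers (-0.23) and 3 of 4 melanoma markers (-0.62). In contrast, 10 of 14 cDC1 markers (0.12) and 4 of 7 neutrophil markers (0.34) had positive values. In the Irf1 deletion 5 of 11 mature DC markers (median 0.03), 15 of 16 T and NK cell markers (-1.11) and 15 of 15 macrophage and monocyte markers (-0.51) had negative values. So had 6 of 7 cDC2 markers (-0.48), 5 of 6 plasmacytoid DC markers (-0.21), 10 of 12 fibroblast and endothelium markers (-0.13) and 3 of 4 melanoma markers (-0.57). In contrast, 11 of 14 cDC1 markers (0.15), 5 of 6 B cell markers (1.09) and 5 of 7 neutrophil markers (0.40) had positive values. Mature DC markers averaged a log2 CPM of 6.97, 6.26, 5.66 and 6.02 in the Ikbkb-deleted libraries. Their Ikbkb controls had 6.44, 6.23, 8.10 and 6.07, the highest being replicate 3. T and NK cell markers averaged 3.17, 4.45, 3.35 and 3.35 in the Ikbkb-deleted libraries and 3.55, 3.63, 6.25 and 4.16 in these controls. The marker medians were not recomputed without that replicate. The part of the markers in the members' values was not tested beyond the covariate fits. Without Ikbkb control replicate 3, the Ikbkb values of Traf1, Birc2, Birc3 and Xiap turned positive, so that 3 of the 9 were negative (Traf3, Cflar and Ripk1). Signs close to 0 also depended on the scaling: with DESeq2's size factors (RLE) Traf2 and Casp8 lay just below 0 in the Ikbkb deletion (-0.0042 and -0.018) and Traf2 in the Irf1 deletion (-0.0081).

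**Figure D3:**
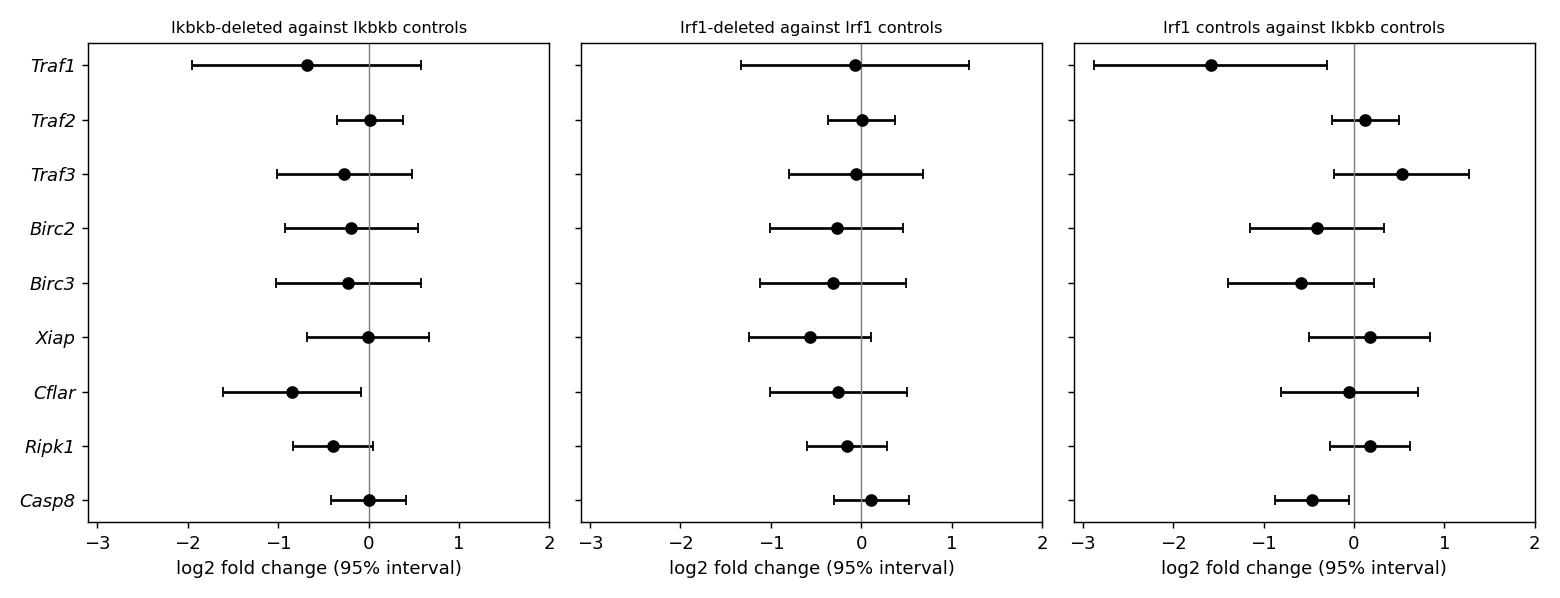
Log2 fold change of each member in the Ikbkb deletion, the Irf1 deletion and between the control groups, with bars for the 95% interval. The unadjusted intervals leave out 0 for Cflar in the Ikbkb deletion and for Traf1 and Casp8 between the controls, and no value shown passed the adjusted test.

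The difference between the deletions, tested in the same fit as Irf1 minus Ikbkb, called no member and 0% of all genes (455 at an unadjusted p under 0.05, 12 called by DESeq2). For Traf1 it was 0.62 ± 0.84, for Cflar 0.59 ± 0.51 and for Xiap -0.57 ± 0.45 on the log2 scale, all with an adjusted p of 1.00 by edgeR's test. The mean of both deletions, the contrast with the smallest SEs, called 0% as well (842, or 5.25%, at an unadjusted p under 0.05, 27 called by DESeq2). Cflar had the largest value there, 0.683-fold with a 95% interval of 0.470- to 0.992-fold (log2 -0.55 ± 0.25; edgeR's unadjusted p = 0.0456, adjusted p = 0.942), followed by Traf1 at -0.38 ± 0.42. For Cflar this mean was -0.22 without Ikbkb control replicate 3. Traf2 had the narrowest interval, 0.841- to 1.20-fold around 1.01.

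The control groups, set against each other, gave many calls where the deletions gave none. Of all genes, 12.6% were called between the Irf1 controls and the Ikbkb controls (2018 genes: 1081 higher, 937 lower), yet no member was. In 17.5% of the genes tested these groups did not overlap, and all 9 members overlapped. The number of genes called was 782, 850 and 1180 without Irf1 control replicate 3, 2 or 1. It was 1067, 1342 and 1374 without Ikbkb control replicate 2, 1 or 4. Without Irf1 control replicate 4 or Ikbkb control replicate 3 it was higher, at 2404 and 2120. Traf1 came nearest to a call, averaging 90.6 ± 40.3 CPM in the Irf1 controls, against 271 ± 276 CPM in the Ikbkb controls (SD, n = 4 each; 0.334-fold, log2 -1.58 ± 0.61; edgeR's adjusted p = 0.0989). DESeq2 called it (adjusted p = 0.0281), and so did edgeR with the cDC1 marker level as covariate (log2 -1.05, adjusted p = 0.00523). With the mature DC marker level as covariate its value was 0.48 (edgeR's adjusted p = 0.149), and without Ikbkb control replicate 3 it was -0.55 (adjusted p = 0.494). In the same comparison all 11 mature DC markers were lower in the Irf1 controls (median -1.43, 4 called), as were 16 of 16 T and NK cell markers (-1.36, 0 called), 6 of 6 B cell markers (-2.51, 1 called) and 11 of 14 cDC1 markers (-0.96, 0 called), while 12 of 12 fibroblast and endothelium markers were higher (1.24, 7 called). Casp8 averaged 98.8 ± 10.3 CPM in the Irf1 controls, against 136 ± 30.5 CPM in the Ikbkb controls (log2 -0.46 ± 0.19; edgeR's adjusted p = 0.130). Both sets differ by line and by whatever else set them apart, and these cannot be told apart.

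In the order of group means, most neighbours overlapped. The Ikbkb-deleted libraries had the lowest Cflar, Ripk1 and Traf3, at 30.6 ± 7.0, 49.0 ± 9.0 and 19.99 ± 11.6 CPM (SD, n = 4), while the Irf1-deleted libraries had the lowest Traf1, Birc2, Birc3 and Xiap. Cflar alone had a break between neighbouring groups: all Irf1-deleted libraries (37.9 to 50.1 CPM) lay above all Ikbkb-deleted libraries (20.3 to 35.6 CPM), and so did the Irf1 controls (42.7 to 70.1 CPM). Irf1-deleted libraries lay wholly above Ikbkb-deleted ones in 9.02% of the genes tested. The Irf1 controls also lay above the Ikbkb-deleted libraries for Ripk1, with 60.7 to 80.5 CPM against 37.6 to 57.8 CPM. Over all genes 11.9% were separated in this way between these groups, so that Cflar and Ripk1, 2 of the 9 members, are no result about the members. Every other pair of groups overlapped for every member, and none of these separations between the sets was tested.

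Partner genes were also set against each other within a library, as ratios of CPM per kb. Cflar over Casp8 averaged 0.053 ± 0.018 in the Ikbkb-deleted libraries, against 0.092 ± 0.059 in the Ikbkb controls (SD, n = 4 each), and 0.099 ± 0.023 in the Irf1-deleted libraries, against 0.125 ± 0.041 in the Irf1 controls. Birc3 over Birc2 averaged 1.30 ± 0.79 in the Ikbkb-deleted libraries, against 1.08 ± 0.35 in the Ikbkb controls, and 0.956 ± 0.184 in the Irf1-deleted libraries, against 1.03 ± 0.36 in the Irf1 controls. Traf1 over Traf2 averaged 1.40 ± 0.71 in the Ikbkb-deleted libraries, against 2.11 ± 1.83 in the Ikbkb controls, and 0.688 ± 0.401 in the Irf1-deleted libraries, against 0.719 ± 0.324 in the Irf1 controls. The groups of each deletion overlapped for all 3 ratios. In Ikbkb control replicate 3 the ratio of Traf1 over Traf2 was 4.85 and that of Cflar over Casp8 0.178, the highest of its group in both. The scale of a ratio depends on the exon length used, its comparison between groups does not.

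What Traf1 did follow, from library to library, was the level of mature DC markers (such as Ccr7, Fscn1 and Ccl22). Over the 8 Ikbkb libraries Pearson's r was 0.98 and Spearman's rho 0.98 (exact permutation p = 0.000198 for r), and over the 8 Irf1 libraries r was 0.96 and rho 0.98 (exact p = 0.000174). Over all 16 libraries r was 0.97 and rho 0.97 (permutation p = 1e-05 for each, the smallest that 100000 permutations can give, adjusted 0.00054 over 54 relations). Leaving out the 2 libraries farthest from the median marker level, Ikbkb control replicate 3 and Irf1 control replicate 3, gave r = 0.94. The relation of Traf1 with cDC1 markers was looser over all libraries (r = 0.84, rho = 0.69, permutation p = 0.00012 and 0.00461, adjusted 0.00216 and 0.083). Without the 2 farthest libraries r was 0.68. In the Ikbkb libraries r was 0.88 and rho 0.76 (exact permutation p = 0.00528 for r). In the Irf1 libraries r was 0.96 and rho 1 (exact permutation p = 2.48e-05 for r), as close as with mature DC markers. Traf1 also followed T and NK cell markers (r = 0.74, rho = 0.65, adjusted permutation p = 0.0156 and 0.0959), with r = 0.57 without the 2 farthest libraries. With fibroblast and endothelium markers its r was -0.60 over all libraries (rho = -0.56, adjusted permutation p = 0.0599 and 0.135), and -0.60 without the 2 farthest. Within the Ikbkb and Irf1 sets that r was -0.10 and -0.46. Its r was 0.08 with macrophage and monocyte markers and -0.22 with melanoma markers. These marker levels move together in part, and which of them the Traf1 level goes with was not tested.

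**Figure D4:**
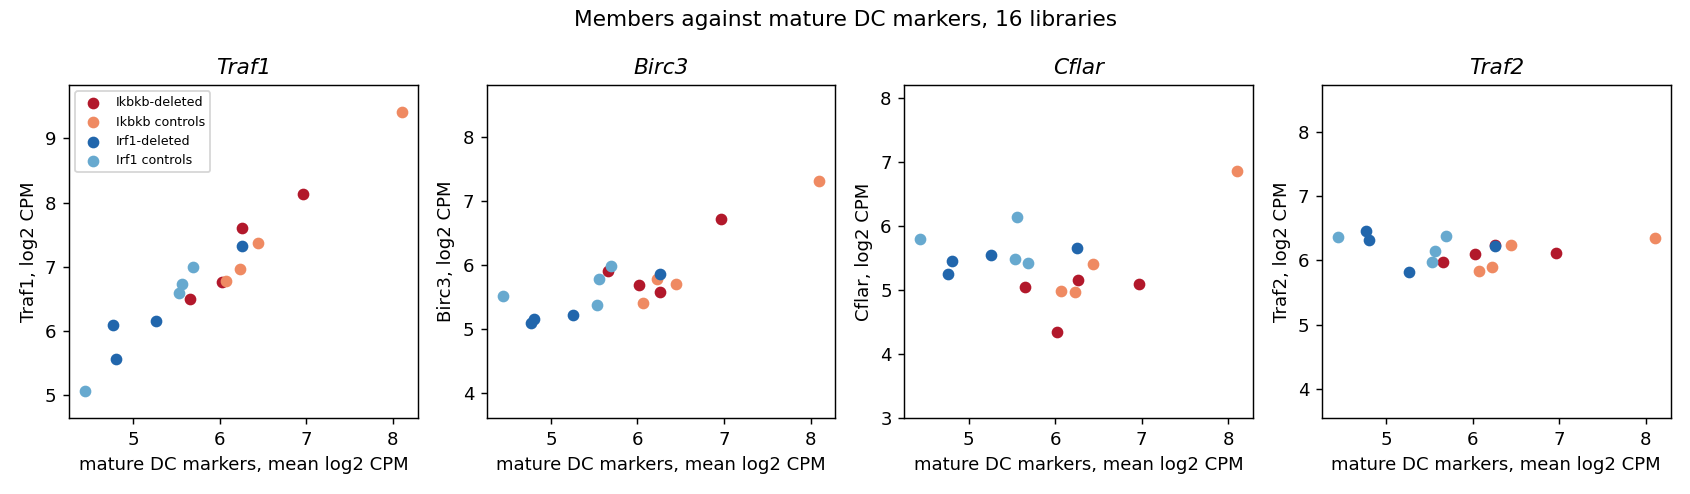
Log2 CPM of Traf1, Birc3, Cflar and Traf2 against the mean log2 CPM of mature DC markers, 1 point per library, coloured by group. The points of Traf1 rise with the marker level within each set (r = 0.98 in the Ikbkb and 0.96 in the Irf1 libraries), while the points of Traf2 stay level.

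Other members followed the markers less closely. Birc3 had r = 0.85 and rho = 0.69 with mature DC markers over 16 libraries (permutation p = 6e-05 and 0.00451, adjusted 0.00162 and 0.083). Without the 2 farthest libraries r was 0.77. In the Ikbkb and Irf1 sets its r was 0.89 and 0.68, and its rho 0.48 and 0.74. Its relation with cDC1 markers rested on Ikbkb-deleted replicate 1 and Ikbkb control replicate 3: r was 0.80 with them (adjusted permutation p = 0.0081) and 0.42 without them. Birc2 had r = 0.65 and rho = 0.59 with mature DC markers (adjusted permutation p = 0.0475 and 0.135), and 0.53 without the 2 farthest. Within the Ikbkb and Irf1 sets its r was 0.70 and 0.44 (exact permutation p = 0.055 and 0.277). Ripk1 followed mature DC markers within each set, with r = 0.77 in the Ikbkb libraries (exact permutation p = 0.0225) and 0.79 in the Irf1 libraries (exact permutation p = 0.0158), but not across both (r = 0.20). Cflar followed them in the Ikbkb set (r = 0.86, rho = 0.76, exact permutation p = 0.0276 for r), and its r in the Irf1 set was 0.16. The difference between the sets was not tested. Over all libraries Cflar had r = 0.24 and rho = -0.20 with mature DC markers. Its r was -0.29 without the 2 farthest, Ikbkb control replicate 3 and Irf1 control replicate 3. With T and NK cell markers Cflar had r = 0.86 in the Ikbkb set (rho = 0.38, exact permutation p = 0.0405 for r). In the Irf1 set its r was 0.71 (rho = 0.55, exact permutation p = 0.047 for r). Over all libraries r was 0.33, and -0.14 without the 2 farthest, Ikbkb control replicate 3 and Irf1-deleted replicate 4. Ripk1 had 0.73 and 0.68 with these markers in the Ikbkb and Irf1 sets, and 0.23 over all. Birc3 had r = 0.69 and rho = 0.58 with them over all libraries (adjusted permutation p = 0.0239 and 0.135), and r = 0.38 without the 2 farthest libraries. In the Ikbkb and Irf1 sets its r was 0.55 and 0.81, and its rho -0.21 and 0.81. The other members had r between -0.41 and 0.52 with T and NK cell markers over all libraries, apart from Traf1 above. The p-values within sets are unadjusted. Traf2, Traf3 and Xiap had r between -0.22 and 0.35 with mature DC markers over all libraries. Casp8 had 0.61 with them (adjusted permutation p = 0.0617), but 0.37 and 0.20 within the Ikbkb and Irf1 sets (exact permutation p = 0.385 and 0.628).

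**Figure D5:**
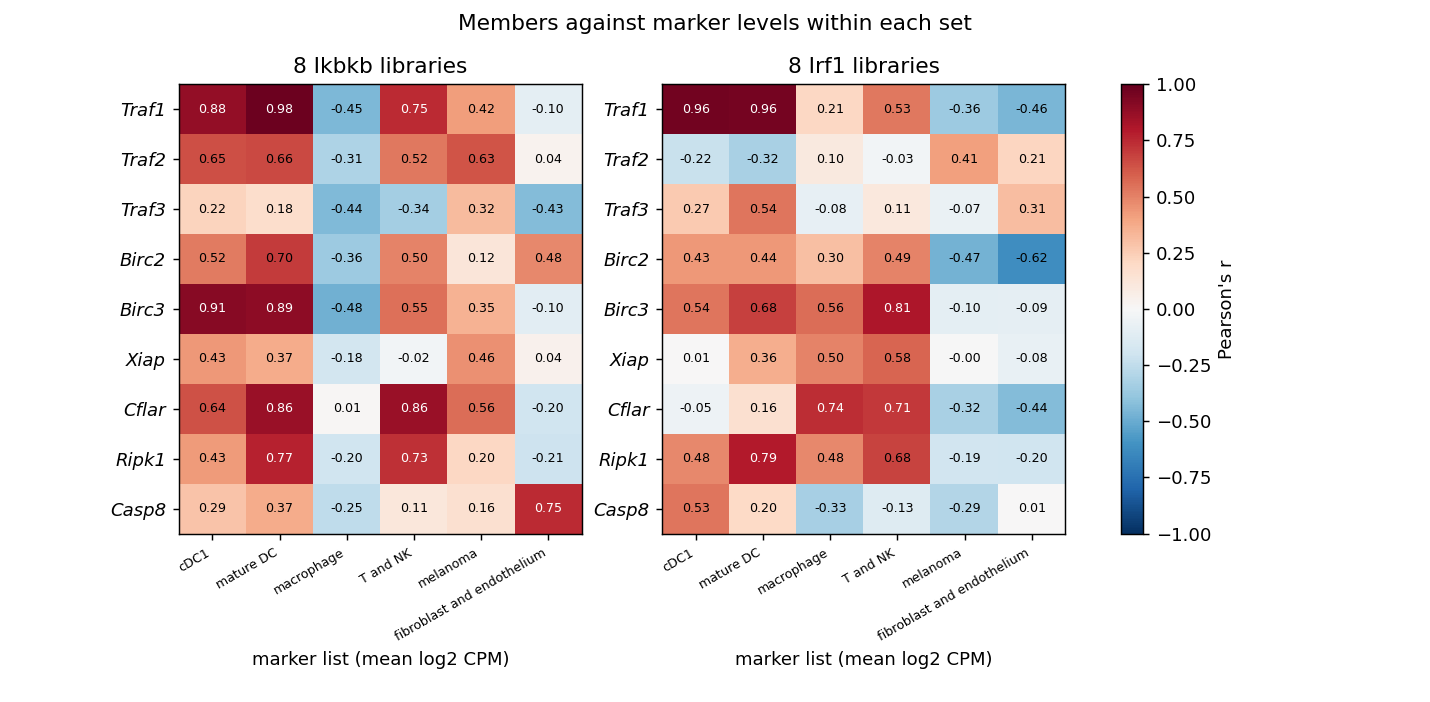
Pearson's r of each member with the mean log2 CPM of 6 marker lists, in the 8 Ikbkb libraries (left) and the 8 Irf1 libraries (right). Traf1 has the highest values with mature DC markers in the Ikbkb set (0.98) and with cDC1 and mature DC markers in the Irf1 set (0.96 each).

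By the same measure, r of log2 CPM over the 16 libraries among 9465 other genes, the gene most like Traf1 was Cd40 (r = 0.98), which encodes a TNF family receptor whose tail binds TRAF proteins. Rogdi (0.96) and AI467606 (0.95) came next, and 369 genes reached 0.8. Birc3 was most like Stk4, Gna13 and Fxyd5 (0.93 each), with 317 genes at 0.8 or more. Cflar was most like Rabgef1 (0.96), Stoml1 (0.92) and Klf3 (0.91), and Traf3 like Golm1 (0.93), Ptpn12 and Specc1l (0.87 each). Ripk1 was most like Zfyve1 (0.90), Fbrsl1 (0.89) and Kdm3b (0.86), and Casp8 like Hnrnpf (0.87), Elavl1 and Plekhf2 (0.86 each). For Birc2 these were Osgin2, Rabgap1l and Kdm7a (0.84 to 0.82), and for Xiap Ccdc50, Xpr1 and Plagl2 (0.81 to 0.80). Traf2 had no gene at 0.8, its closest being Klhl28 (0.74), D11Wsu47e (0.71) and Lmbr1l (0.70). Among the members themselves the highest r were those of Traf1 with Birc3 (0.84; 0.87 in the Ikbkb and 0.64 in the Irf1 set), Cflar with Ripk1 (0.68; 0.69 and 0.53) and Traf1 with Birc2 (0.67; 0.71 and 0.44). All points share libraries, so these values describe this set of libraries.

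Around the members, 7 lists of genes of the same pathways were followed, 120 tested genes in all, and none of them was called in either deletion. Of the 16 tested TNF family ligands 14 had negative values in the Ikbkb deletion (median log2 -0.61) and 10 in the Irf1 deletion (median -0.64). The ligand with the highest level, Tnfsf9 (4-1BB ligand), averaged 33.1 ± 15.2 CPM in the Ikbkb-deleted libraries and 43.6 ± 36.5 CPM in the Ikbkb controls. Ltb (lymphotoxin beta) averaged 18.8 ± 8.9 CPM in the Ikbkb-deleted libraries and 35.4 ± 41.5 CPM in their controls. Of the 18 tested receptors 15 and 13 had negative values in the Ikbkb and the Irf1 deletion (medians -0.35 and -0.16). Over all genes tested 47.8% and 48.2% had positive values in these comparisons. The counts and medians of the lists were not recomputed without Ikbkb control replicate 3. Tnfrsf1a, the main TNF receptor, averaged 130 ± 11 CPM in the Ikbkb-deleted libraries and 143 ± 63 CPM in the Ikbkb controls. Its Irf1-deleted libraries averaged 179 ± 31 CPM, against 161 ± 30 CPM in the Irf1 controls. The receptor gene with the highest level, Tnfrsf12a, had log2 fold changes of 0.38 ± 0.30 and 0.24 ± 0.30 in the Ikbkb and the Irf1 deletion. For the remaining lists, medians in the Ikbkb and Irf1 deletions were -0.06 and 0.04 for the other TRAF genes and adaptors (17 genes), -0.05 and -0.09 for ubiquitin chain genes (20), -0.14 and -0.14 for NF-kB kinases and subunits (20), -0.08 and -0.33 for IAP relatives and antagonists (10) and -0.09 and -0.20 for caspases and necroptosis genes (19). Of the genes named from these lists, on the log2 scale, the adaptor gene Myd88 had -0.26 in the Ikbkb and 0.23 in the Irf1 deletion, Tradd (the TNF receptor 1 adaptor) -0.06 and 0.17, and Rela (an NF-kB subunit) 0.01 and 0.17. Usp18, a protease for the ubiquitin-like ISG15, had -0.94 ± 0.51 and -0.13, Birc5 (survivin) 0.17 and 0.12, and Gsdmd (gasdermin D) -0.17 and -0.21.

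Between the control groups 12 of the 120 tested list genes were called, which is 10%, close to the 12.6% of all genes, so the count is no result about these lists. Nfkbia, the inhibitor of NF-kB that NF-kB itself induces, averaged 263 ± 56 CPM in the Irf1 controls, against 873 ± 328 CPM in the Ikbkb controls (log2 -1.73 ± 0.24; edgeR's adjusted p = 0.00391). Tnfaip3, which encodes the ubiquitin-editing enzyme A20 that acts on RIPK1, averaged 69.6 ± 25.8 CPM in the Irf1 controls, against 233 ± 114 CPM in the Ikbkb controls (-1.74 ± 0.36; adjusted p = 0.00884). Also lower in the Irf1 controls were Tnfsf9, Tnfrsf9 (its receptor), Tnfrsf12a, Ube2d3, Map3k8 and Htra2, a mitochondrial protease that antagonises IAPs. Higher were Map3k5 (2.43 ± 0.67), Map2k7 (1.31 ± 0.27) and Birc6, the giant IAP relative (1.15 ± 0.31), and the kinase list held 1 further called gene, also higher.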

How the data were processed

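The authors deposited 1 table of raw counts per Ensembl gene for 16 libraries of polyA RNA, made by SMART-Seq v4 and Nextera XT from 1000 pg of RNA with 12 cycles of PCR in each step, per the labels' protocols. The submitters' processing notes name bcl2fastq 2.17.1.14, cutadapt 1.10, STAR 2.5.3a, HTSeq 0.6.1p1 and build mm10. Which annotation release and strand setting were used is not given in the sources used here. PCR copies carry no molecular identifiers, so counts are not molecules.

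Genes were filtered with filterByExpr (minimum count 10, total 15), leaving 16040 of 32697. A single fit over all 4 groups was made with edgeR 4.0.16 in R 4.3.3 (TMM scaling, quasi-likelihood test, Benjamini-Hochberg adjustment over all genes, threshold 0.05). The SE of a log2 fold change was derived from the test, as its absolute value over the square root of the F statistic. The 95% intervals were built from these SEs. CPM values are TMM-scaled, and log2 CPM used a prior count of 2. DESeq2 1.42.0 and limma 3.58.1 (voom) were alternatives, with other scalings and filters, marker covariates and each library left out. The test was checked on simulated counts. GENCODE M21 gave positions for 32684 gene IDs. Correlations over 16 libraries used 100000 permutations, which did not keep the Ikbkb and Irf1 sets apart, and those within a set of 8 all orders.

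The members and lists were chosen with earlier results of these data known. All 9 members are named; of each pathway list, up to 4 called genes with the largest change or, with none called, the 2 of the highest level per kb; and for each member the 3 most correlated genes, leaving out predicted genes and pseudogenes. Some genes that this rule names are not reported here.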

Additional observations from a re-analysis of the deposited data

Results flagged for a closer look

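In 15 of the 96 groups of 4 libraries looked at, 1 library lay far from the other 3 by Dixon's 95% criterion; chance gives about 1 in 20. Ikbkb control replicate 3 was the far library in most of them. It had 684 CPM of Traf1, against 166 CPM in the nearest control, 159 CPM of Birc3, against 54.7 CPM, and 115 CPM of Cflar, against 42.4 CPM. Its ratio of Traf1 over Traf2 was 4.85, against 1.28, and its Ikbkb level 121 CPM, against 48.6 CPM. The same library had summed levels of 8535 CPM for mature DC markers, against 2941 CPM, 8981 CPM for cDC1 markers, against 2034 CPM, and 1896 CPM for T and NK cell markers, against 479 CPM. Which of these go together was not tested.

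Among the Ikbkb-deleted libraries, replicate 1 stood apart with 37.3 CPM of Traf3, against 15.97 CPM in the nearest library, and with 9327 CPM of cDC1 markers, against 2722 CPM. Replicate 2 had 548 CPM of T and NK cell markers, against 254 CPM. In the Irf1-deleted group, replicate 1 had 57.9 CPM of Birc3, against 37.2 CPM. Replicate 4 had the lowest Xiap, 6.74 CPM, against 17.0 CPM, and the lowest sum of cDC2 markers, 72.9 CPM, against 195 CPM. Irf1 control replicate 3 had the lowest ratio of Traf1 over Traf2, 0.234, against 0.860.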

How the results depend on the processing

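No member was called in either deletion, in their difference or in their mean under any alternative run. Of all genes, DESeq2 called 38 in the Ikbkb deletion, 6 in the Irf1 deletion, 12 for their difference and 27 for their mean, where edgeR called 0. Between the controls DESeq2 called 3171 genes, voom with quality weights 4130 and edgeR without a filter 1199, against 2018. Leaving out single libraries gave 0 to 1 calls in the Ikbkb deletion (1 without Ikbkb-deleted replicate 2), 0 to 1 for the difference (1 without Irf1 control replicate 3) and 782 to 2404 between the controls. In that comparison voom moved the median of all genes to 0.12, the mature DC covariate to 0.15 and leaving out Ikbkb control replicate 3 to 0.11.

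Some member values changed sign, those near 0 (Traf2, Casp8, Xiap) and also larger ones such as that of Traf1 in the Ikbkb deletion and between controls (-0.68 and -1.58 as reported), and the cause was not tested. In the Ikbkb deletion Traf2 was -0.0042 with RLE scaling and -0.0044 with DESeq2; Casp8 was -0.018 with either, -0.0051 with a filter at 5 CPM and -0.022 with the cDC1 covariate; Xiap was 0.0093 with upper-quartile scaling, 0.00048 without a filter and 0.0035 in its own set of 8. In the Irf1 deletion Traf2 was -0.0081 with RLE, -0.0030 at 5 CPM, -0.0042 with the cDC1 covariate, -0.0078 with DESeq2, -0.039 with voom and -0.0035 in its own set. In the mean Traf2 was -0.0062 with RLE and -0.0061 with DESeq2. With voom, Traf1, Birc2 and Birc3 were 0.0093, 0.039 and 0.087 in the Ikbkb deletion, Traf1 and Casp8 -0.016 and -0.050 in the difference, Traf1 0.0015 in the mean and Cflar 0.31 between controls. With the T and NK cell covariate, Birc3 and Xiap were 0.16 and 0.11 in the Ikbkb deletion, Traf1 0.17 in the Irf1 deletion, Traf1 and Birc3 0.069 and 0.024 in the mean, and Cflar 0.54 between controls; with the cDC1 covariate Cflar was 0.25 there. With the mature DC covariate, chosen after seeing the data, Traf1, Birc2, Birc3 and Xiap were 0.24, 0.035, 0.25 and 0.13 in the Ikbkb deletion, Traf1 was -0.24 in the difference and 0.12 in the mean, and Traf1, Birc2, Birc3 and Cflar were 0.48, 0.26, 0.56 and 0.84 between controls. Without both Ikbkb control replicate 3 and Ikbkb-deleted replicate 1, Birc3 and Xiap were 0.092 and 0.049 in the Ikbkb deletion, Traf1 and Cflar -0.029 and -0.0035 in the difference, and Birc3 and Cflar 0.048 and 0.60 between controls.

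With single libraries left out, values ran in the Ikbkb deletion from -1.06 to 0.33 for Traf1, -0.065 to 0.11 for Traf2, -0.40 to 0.076 for Birc2, -0.55 to 0.40 for Birc3, -0.11 to 0.17 for Xiap, -1.05 to -0.20 for Cflar and -0.13 to 0.12 for Casp8. In the Irf1 deletion they ran from -0.55 to 0.14 for Traf1, -0.081 to 0.12 for Traf2 and -0.22 to 0.13 for Traf3. In the difference they ran from -0.39 to 1.00 for Traf1, -0.10 to 0.10 for Traf2, -0.34 to 0.13 for Birc2, -0.71 to 0.24 for Birc3, -0.049 to 0.80 for Cflar and -0.00022 to 0.25 for Casp8. In the mean they ran from -0.62 to 0.14 for Traf1, -0.032 to 0.066 for Traf2, -0.43 to 0.048 for Birc3 and -0.0088 to 0.12 for Casp8, and between controls from -0.79 to 0.048 for Birc3 and -0.25 to 0.60 for Cflar.

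No paired analysis was possible because replicate numbers were given in accession order and pair nothing. With 4 libraries a group, the intervals leave changes of the size of the spread between libraries possible, which is widest for Traf1.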
